A study of Mus musculus with 6 samples.

Results

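The genes described here encode the light-detection machinery of rod and cone photoreceptors. They are 34 of the 39179 gene rows counted in whole retinas of newborn mice, and they were chosen by name. The 9 genes of the rod machinery are Sag, Gnat1, Gngt1, Gnb1, Pde6a, Pde6b, Pde6g, Cnga1 and Cngb1. Gnb1 among them is also made by other cells. The 10 genes of the cone machinery are Opn1sw, Opn1mw, Arr3, Gnat2, Gngt2, Gnb3, Pde6h, Pde6c, Cngb3 and Cnga3. The other 15 are used by both or carried by the photoreceptor outer segment and its support. They are Rom1, Prph2, Aipl1, Rp1, Nxnl1, Rbp3, Rcvrn, Guca1a, Guca1b, Gucy2e, Gucy2f, Pdc, Abca4, Grk1 and Unc119. All 6 mice were of mixed, mostly CD-1 background, were taken at postnatal day 0.5 and carried floxed alleles of Lhx2, a LIM homeodomain transcription factor of eye progenitors. The 3 controls were Lhx2 lox/lox without Cre and carry the label numbers 2, 3 and 4, and the series text calls them wild type. The 3 conditional knockouts (cKO 1, 2 and 3) were Lhx2 lox/lox; Pdgfrα-Cre, in which Cre recombinase follows the Pdgfrα promoter, so deletion is limited to cells with a history of that promoter and their descendants. Libraries are given below in the order control 2, 3, 4 and cKO 1, 2, 3.

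In the dark, cyclic GMP holds open the cyclic nucleotide-gated channels of the outer segment. A photon activates an opsin, the opsin activates the G protein transducin (a Gnat alpha subunit with Gnb and Gngt subunits), and transducin relieves phosphodiesterase 6 (Pde6) of its inhibitory subunit, so that cyclic GMP is hydrolysed and the channels (Cnga and Cngb subunits) close. Opsin kinase and arrestin (Sag in rods, Arr3 in cones) end the signal, and guanylate cyclases (Gucy2e, Gucy2f) under their calcium-sensing activators (Guca1a, Guca1b) restore cyclic GMP. Rods and cones use paralogous subunits at most steps, and in the mouse cones are born before birth while rods are still being born around birth, well before outer segments form.

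The promoters of these genes often carry the core letters TAATCC bound by Otx2-type homeodomain factors of photoreceptors. Of the 24 members with an entry among RefSeq promoter sequences (GRCm38.p6), 12 held TAATCC or its reverse complement GGATTA in the 250 bases before the start, against 7.21% of 27025 genes. Within 100 bases the share was 10 of 24 (41.7%), against 2.69%. By class the letters were in 4 of 6 rod, 1 of 6 cone and 7 of 12 shared promoters. The 100 bases before the RefSeq start are shown for 6 of the 10 members with a match within that distance, chosen for the match, 5′ to 3′ on the gene's strand, with the motif on either strand in capitals.
Sag (chr1:87803580-87803679, plus strand): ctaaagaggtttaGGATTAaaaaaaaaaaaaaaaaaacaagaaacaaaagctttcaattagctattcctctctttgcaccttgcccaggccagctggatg
Gngt1 (chr6:3993908-3994007, plus strand): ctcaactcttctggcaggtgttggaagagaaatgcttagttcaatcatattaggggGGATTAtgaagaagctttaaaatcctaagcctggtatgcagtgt
Cngb1 (chr8:95306586-95306685, minus strand): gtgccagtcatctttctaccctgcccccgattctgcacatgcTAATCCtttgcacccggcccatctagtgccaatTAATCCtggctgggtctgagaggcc
Gnat2 (chr3:108092966-108093065, plus strand): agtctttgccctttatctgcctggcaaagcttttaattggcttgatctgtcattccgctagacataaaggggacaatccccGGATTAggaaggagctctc
Guca1a (chr17:47400607-47400706, minus strand): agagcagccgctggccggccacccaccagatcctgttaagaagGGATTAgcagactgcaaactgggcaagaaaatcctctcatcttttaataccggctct
Rbp3 (chr14:33953903-33954002, plus strand): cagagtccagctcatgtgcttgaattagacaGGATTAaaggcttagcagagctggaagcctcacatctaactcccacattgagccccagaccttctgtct

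In these stretches the motif nearest the start begins 19 bases before it in Gnat2, 25 bases before it in Cngb1, 44 in Gngt1, 57 in Guca1a, 69 in Rbp3 and 87 in Sag. The Gngt1 and Gnat2 stretches lie inside the gene spans of GENCODE vM21, which begin further upstream. A match is a description of letters and not of binding. The 11 tested members with the motif had a median log2 fold change of 0.12 between cKO and control, and the 11 tested members with an entry but no motif had 0.07. Members with an entry but no motif, among them Opn1sw, Arr3, Pde6h, Pdc and Prph2, are not shown. The other 10 members (Cngb3, Gnat1, Gnb3, Gngt2, Guca1b, Pde6a, Pde6c, Pde6g, Rcvrn and Rp1) had no entry.

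Gene counts per library ran from 31483170 to 66947478. The libraries fell into a pair of sets that do not follow genotype and have no counterpart in the labels. Set A (control 2, cKO 1 and cKO 2) had more than 2.9% of its deposited counts ambiguous between genes, and set B (control 3, control 4 and cKO 3) had less. The share of mitochondrial transcripts was 1.15 to 1.79% for set A and 7.14 to 9.55% for set B. Y-linked genes marked controls 2 and 4 as male and the other 4 mice as female, so in set A genotype and sex cannot be told apart. Lhx2 itself was at 399, 266 and 258 CPM (counts scaled to library size) for the controls against 252, 287 and 224 for the cKO, lower in cKO within each set (log2 fold change -0.40, SE 0.10, adjusted p = 0.0338 with set in the model, and -0.27, adjusted p = 0.817, without). These are gene-level counts, which include exons outside any deleted stretch. Otx2, a photoreceptor precursor factor, was at 273 to 473 CPM in every library. Of the pigment epithelium transcripts, Pmel had 933 reads in cKO 2 and 15 to 281 reads in the other libraries. Rpe65 had at most 2 reads in any library.

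Reads of the phototransduction genes ran from 985 CPM for Gnb1 in cKO 2 down to 0 reads for Opn1mw in control 3 and cKO 3 and for Pde6h in control 3. Per kilobase of exon, the highest control levels among the 34 were those of Gnb1 (a transducin beta subunit that other cells also make) at 173 CPM per kb, Pdc (phosducin, which binds transducin beta and gamma) at 133, Rbp3 (the retinoid-binding protein of the space around outer segments) at 61.9, Gngt2 at 56.3 and Gnb3 at 55.6. The median control level per kilobase was 4.17 for rod genes, 5.04 for cone genes and 5.12 for shared genes, so the classes lay close together at this age. In each class the highest and lowest members were far apart. Among rod genes Pde6g (17.4) and Sag (11.6) followed Gnb1, and Cnga1 (1.22), Gnat1 (0.934) and Pde6a (0.348 CPM per kb) were lowest. Among cone genes Opn1sw (23.9) followed Gngt2 and Gnb3, and Arr3 (0.624), Pde6h (0.0214) and Opn1mw (0.0188) were lowest. Among shared genes Pdc and Rbp3 were followed by Rom1 (44.6), an outer segment disc protein, and Abca4 (0.679), Guca1b (0.192) and Gucy2f (0.0334) were lowest.

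Of the cone opsins, the short-wavelength opsin Opn1sw was at 82.3, 47.6 and 53.5 CPM in the controls and 157, 125 and 48.2 CPM in cKO. The middle-wavelength opsin Opn1mw had 1, 0 and 2 reads in controls and 4, 3 and 0 reads in cKO. A count of 0 allows up to 3 reads, which is 0.0898 CPM in control 3 and 0.102 CPM in cKO 3. Opn1mw therefore sat at the detection floor in both groups. The retinal guanylate cyclase Gucy2f had 6, 14 and 8 reads in controls and 3, 16 and 9 reads in cKO, whereas its partner Gucy2e was at 6.38, 12.7 and 13.3 CPM and 9.53, 9.88 and 13.5 CPM. Opn1mw and Gucy2f fell below the filter on low counts, and the other 32 members were tested.

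**Figure D1:**
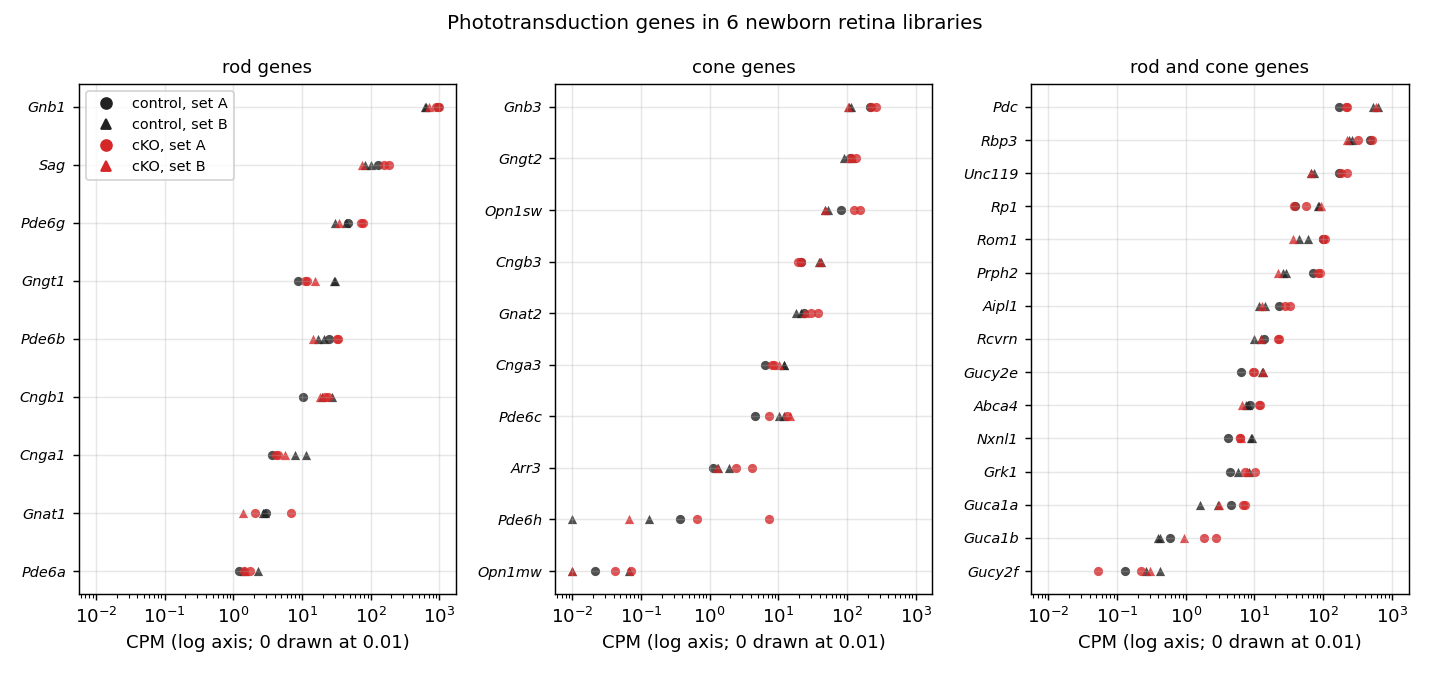
CPM of each member in each library on a log axis, with 1 panel per class (rod, cone, rod and cone), genes on the vertical axis and 1 point per library coloured by genotype and shaped by library set. In 27 of the 32 tested members the difference between sets exceeded that between genotypes, and Opn1mw and Gucy2f lie below 1 CPM in every library, as does Pde6h except in cKO 2 (7.45 CPM).

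The central comparison asks whether loss of Lhx2 alters these genes in the newborn retina. With library set in the model, 1 of the 32 tested members rose in the cKO retinas and 0 fell, against 6.36% of all 16691 genes that rose and 5.63% that fell, and 4 members were under an unadjusted p of 0.05, against 26.3% of all genes. The median log2 fold change was 0.13 over the members, against -0.001 over all genes. It was 0.05 for rod genes (6 above 0 and 3 below), 0.36 for cone genes (8 above and 1 below) and 0.20 for shared genes (12 above and 2 below). Without Gnb1, which other cells also make, the rod median was 0.03. These medians rest on single libraries. Without control 2, the only control of set A, the median over the members was -0.07 (rod -0.33, cone -0.02, shared 0.01), and without cKO 3, the only cKO of set B, it was 0.45 (rod 0.44, cone 0.54, shared 0.46). With genotype alone in the model 0 members were called, against 0.216% of all genes, 2 were under an unadjusted p of 0.05, against 7.74% of all genes, and the median was 0.32. In bulk tissue a change in the number of photoreceptor cells and a change in RNA per cell cannot be told apart.

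Guca1b, which encodes a calcium-sensing activator of retinal guanylate cyclase, was the member that rose. It was at 0.590, 0.419 and 0.398 CPM in controls (27, 14 and 12 reads) and at 2.78, 1.84 and 0.953 CPM in cKO (156, 133 and 28 reads). All 3 cKO libraries lay above all 3 controls, with cKO 3 nearest to them. The means were 0.469 ± 0.106 and 1.86 ± 0.916 CPM (SD, n = 3 each), and the log2 fold change was 1.63 (SE 0.36, adjusted p = 0.0215 in edgeR's quasi-likelihood test). Within set A the log2 fold change was 1.96 (adjusted p = 0.0755) and within set B 1.22 (adjusted p = 0.234). The call was lost with genotype alone (1.98, adjusted p = 0.330), with sex as a further term (1.36, adjusted p = 0.294), with the label number as a replicate block (1.44, adjusted p = 0.0593), without control 2 (1.22, adjusted p = 0.229) and without cKO 3 (1.99, adjusted p = 0.0750). Guca1b lies at chr17:47385393-47392967 on the plus strand (GRCm38), 1590 bases from Guca1a, the other activator, which runs on the minus strand at chr17:47394558-47400584. Guca1a was at 4.61, 2.99 and 1.59 CPM in the controls and 6.71, 7.38 and 3.00 CPM in the cKO (log2 fold change 0.51, SE 0.25, adjusted p = 0.249). In set A both cKO libraries of Guca1a were above control 2, and in set B cKO 3 was level with control 3.

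Gnat2, Pde6c and Rcvrn were the other members under an unadjusted p of 0.05, all without passing the adjusted threshold. Gnat2, the cone transducin alpha subunit, was at 24.0, 21.6 and 18.02 CPM in the controls and 38.3, 30.5 and 24.9 CPM in cKO, with no overlap between the groups (log2 fold change 0.42, SE 0.13, adjusted p = 0.0702). Pde6c, the catalytic subunit of cone phosphodiesterase, was at 4.55, 12.1 and 10.1 CPM against 13.3, 7.41 and 14.7 CPM (0.79, SE 0.27, adjusted p = 0.0946). Rcvrn (recoverin, a calcium sensor that restrains opsin kinase) was at 13.7, 9.69 and 12.4 CPM against 22.6, 21.8 and 12.4 CPM (0.45, SE 0.16, adjusted p = 0.112). The Pde6c groups overlapped across sets but not within either set. Rcvrn in cKO 3 was level with control 4.

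**Figure D2:**
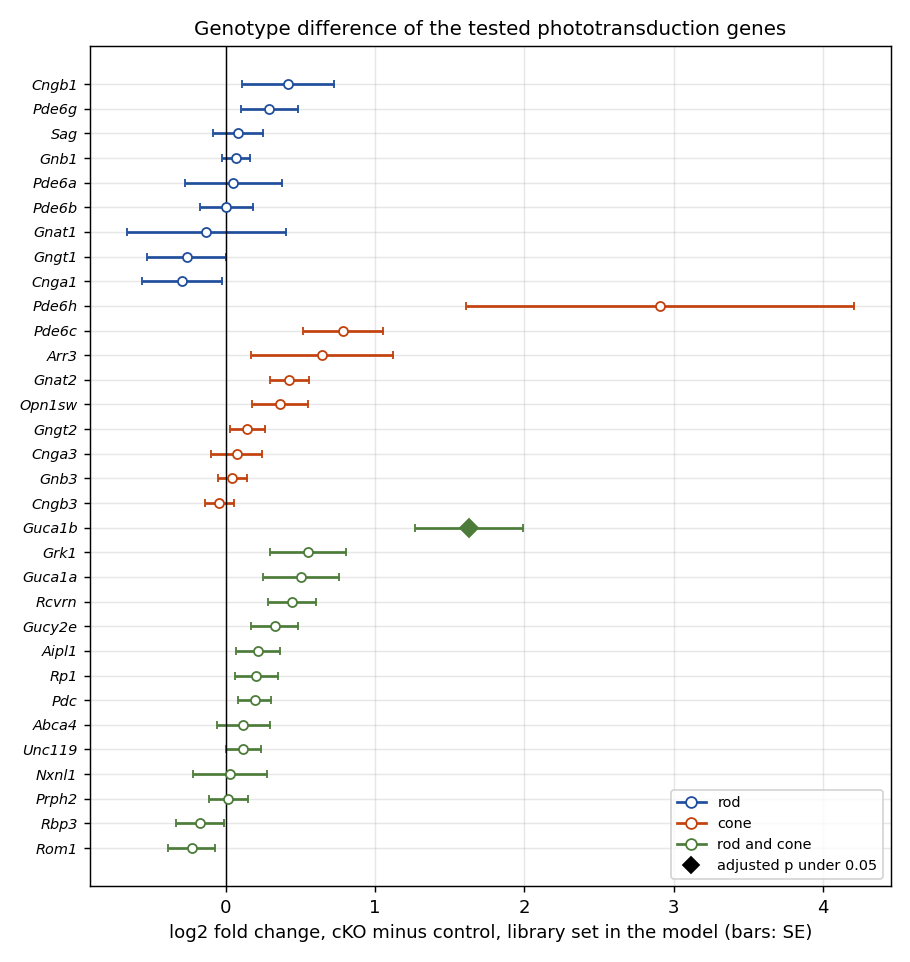
Log2 fold change (cKO minus control, library set in the model) of the 32 tested members on the horizontal axis, 1 gene per row, with bars showing the standard error and colours the class. Guca1b, at 1.63, is the member that passed the threshold, and Pde6h, at 2.91, has the widest error.

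Members of the remaining steps did not pass the test in this fit. For the rod arrestin Sag the value was 0.08 (SE 0.17), for the rod phosphodiesterase subunit Pde6b 0.00 (SE 0.18) and for the peripherin Prph2, a disc rim protein, 0.02 (SE 0.13). Gnb1 was at 0.07 (SE 0.09), Gnb3 at 0.04 (SE 0.10) and Cngb3 at -0.04 (SE 0.09). These last 3 had the smallest errors of the 32 members. Opn1sw had 0.36 (SE 0.19, adjusted p = 0.259), the opsin kinase Grk1 0.55 (SE 0.26, adjusted p = 0.213) and Gucy2e 0.33 (SE 0.16, adjusted p = 0.223). Negative values were those of Cnga1 (-0.29), Gngt1 (-0.26), Rom1 (-0.23), Rbp3 (-0.17), Gnat1 (-0.13) and Cngb3. Aipl1 (a chaperone of phosphodiesterase), Rp1 (an axonemal microtubule protein), Nxnl1 (a rod-derived cone viability factor), Abca4 (the retinoid flippase of disc rims), Unc119 (a carrier of acylated transducin) and Pdc lay between 0.03 and 0.22. The values of Pde6a (0.05), Cnga3 (0.07), Gngt2 (0.15), Pde6g (0.29), Cngb1 (0.42) and Arr3 (0.65, SE 0.47) complete the list.

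The inhibitory cone phosphodiesterase subunit Pde6h rested on 1 library. Its reads were 17, 0 and 4 in controls and 37, 539 and 2 in cKO, or 0.372, 0 and 0.133 CPM against 0.660, 7.45 and 0.0681 CPM. cKO 2 alone held most of them, and the other libraries lay below 1 CPM, and the log2 fold change was 2.91 (SE 1.30, adjusted p = 0.196). The annotated Pde6h model shares 1.7% of its exonic bases with Arhgdib. Without Pde6h the cone median was 0.25 in place of 0.36.

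Libraries of the same genotype and set give the spread against which these differences stand. Between controls 3 and 4 the median fold difference was 1.19 over 31 members (Pde6h had 0 reads in control 3), and Pde6a and Guca1a differed by over 1.5-fold. Between cKO 1 and cKO 2 it was 1.14 over 32 members, and 6 members (Gnat1, Arr3, Pde6h, Pde6c, Rbp3 and Guca1b) did. Gnat1, the rod transducin alpha subunit, shows this spread at low level, with 2.97, 2.66 and 2.85 CPM in controls but 6.85, 2.09 and 1.36 CPM in cKO. The 3 controls of Gnat1 agreed closely, and the cKO libraries lay on both sides of them.

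Within the sets, each class had a higher median log2 fold change in set A than in set B. In set A, where cKO 1 and 2 are compared with control 2, 29 of 32 members were above 0 with a median of 0.43 (rod 0.42, cone 0.52, shared 0.43). In set B, where cKO 3 is compared with controls 3 and 4, 12 were above 0 and 20 below, with a median of -0.07 (rod -0.33, cone -0.02, shared 0.01), and 8 of the 9 rod genes were below 0. Over all genes 49.9% were above 0 within set A (median -0.0005) and 49.2% within set B (median -0.005). Each within-set value rests on 1 library of a genotype, with the spread pooled over the sets. In set A 1 member rose, against 1.07% of all genes, and 0 fell, against 1.02%. In set B 0 rose, against 3.31%, and 1 fell, against 1.05%.

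The member that rose within set A was Cngb1, the beta subunit of the rod channel, with 10.4 CPM for control 2 and 21.97 and 24.1 CPM for cKO 1 and 2 (log2 fold change 1.15, SE 0.23, adjusted p = 0.0407). In set B controls 3 and 4 had 19.3 and 27.2 CPM and cKO 3 had 18.6 CPM (-0.32, SE 0.22, adjusted p = 0.486). Control 2 was thus the lowest of the 6 libraries for Cngb1, and the other 5 ran from 18.6 to 27.2 CPM. The member that fell within set B was Gngt1, the rod transducin gamma subunit, at 30.0 and 28.9 CPM in controls 3 and 4 against 15.5 CPM in cKO 3 (-0.93, SE 0.17, adjusted p = 0.0216). In set A control 2 had 8.70 CPM of Gngt1 and cKO 1 and 2 had 11.2 and 11.97 CPM (0.42, SE 0.17, adjusted p = 0.262). The alpha subunit of the rod channel, Cnga1, had the same order of genotypes within each set as Gngt1, at 3.67, 8.02 and 11.5 CPM in the controls and 4.12, 4.42 and 5.58 CPM in cKO.

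The test of whether the genotype difference differed between set A and set B passed for 0 of 32 members, against 0.024% of all genes. Of the members, 11 were under an unadjusted p of 0.05 for it, 6 of them rod genes, against 4.22% of all genes, and the smallest adjusted p was 0.228, for Gngt1. By library values alone, 6 members (Pde6c, Gnat2, Guca1b, Gucy2e, Guca1a and Rcvrn) had every cKO library above every control within both sets, against 22.9% of all genes, and 0 had it below in both, against 23.8%. A further 11 members (Arr3, Cnga3, Gnb3, Cnga1, Cngb1, Pde6b, Gngt1, Sag, Abca4, Nxnl1 and Prph2) were higher in set A and lower in set B, against 6.48% of all genes. The opposite order, lower in A and higher in B, was seen for 0 members, against 7.3%. For the other 15 members the libraries overlapped in at least 1 set. No rod gene was higher in both sets, and 5 of the 11 with opposite order were rod genes.

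**Figure D3:**
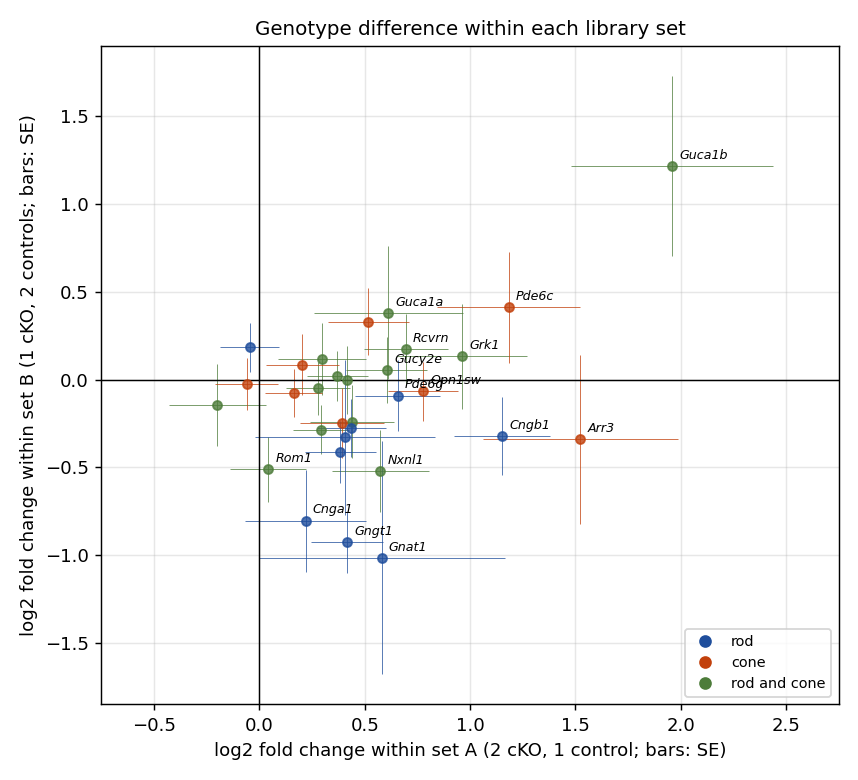
Log2 fold change (cKO minus control) within set A on the horizontal axis against that within set B on the vertical axis, 1 point per tested member with bars showing standard errors and colours the class. Pde6h (3.45 and 0.10) is left out of the plot, and 8 of the 9 rod genes lie below 0 within set B.

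A ratio of a rod gene to its cone paralog within a library does not depend on library scaling. The Gnat1 to Gnat2 ratio was 0.124, 0.123 and 0.158 in controls and 0.179, 0.0685 and 0.0547 in cKO. The Cnga1 to Cnga3 ratio was 0.577, 0.655 and 0.943 in controls and 0.513, 0.511 and 0.543 in cKO. Each cKO library was below each control for the channel alpha subunits, and for transducin alpha cKO 1 was the highest of the 6 libraries and the other 2 cKO the lowest. In the exact permutation test, two-sided, 3 libraries against 3 cannot go below 0.1, and Cnga1 to Cnga3 gave that smallest value (p = 0.1, adjusted p = 0.56 over 7 pairs). The permutations leave the library sets out, although the sets shift several of these ratios (log2 difference, set B minus set A, 1.36 for Gngt1 to Gngt2 and -1.39 for the catalytic phosphodiesterases). Within set A the log2 difference of Cnga1 to Cnga3 was -0.17 and within set B -0.53.

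The gamma subunits (Gngt1 to Gngt2) gave 0.0795, 0.332 and 0.247 in controls and 0.0826, 0.103 and 0.141 in cKO. For the channel beta subunits (Cngb1 to Cngb3) the ratios were 0.480, 0.455 and 0.692 against 1.12, 1.11 and 0.462. Rod to cone catalytic phosphodiesterase (Pde6a plus Pde6b over Pde6c) gave 5.75, 1.56 and 2.27 against 2.499, 4.73 and 1.07. In these 3 pairs the genotypes overlapped. The beta subunits (Gnb1 to Gnb3) gave 4.45, 5.57 and 5.74 against 3.39, 4.40 and 6.78, and the arrestins (Sag to Arr3) 111, 41.8 and 76.1 against 38.2, 75.4 and 58.1. The exact p for these 5 pairs and for Gnat1 to Gnat2 lay between 0.3 and 0.8. For the inhibitory subunits (Pde6g to Pde6h) no ratio could be formed in control 3, where Pde6h had 0 reads, and the others ran from 10.3 to 512. These ratios are of reads and not per length, so they compare libraries and not the levels of the paralogs.

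**Figure D4:**
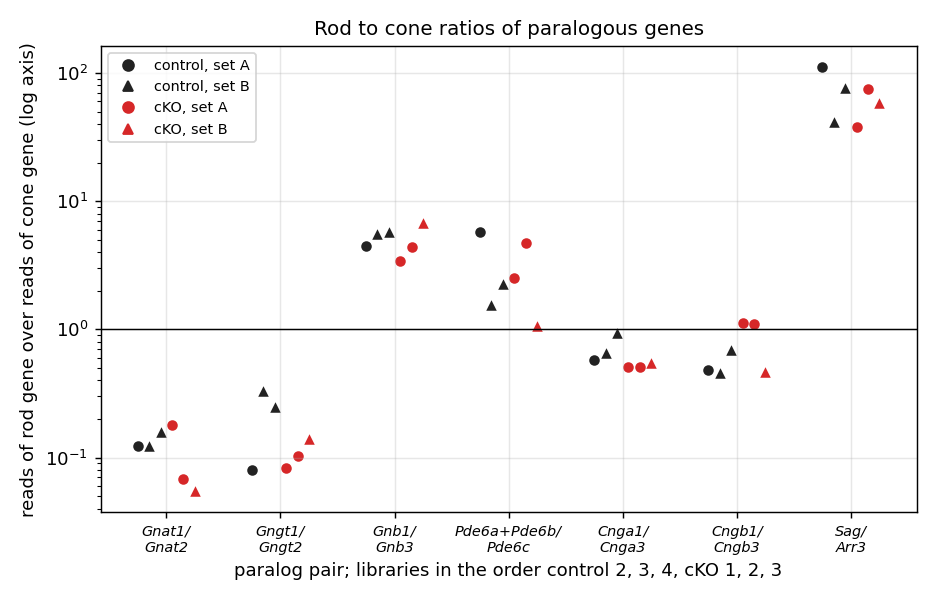
Ratio of reads of the rod gene to reads of its cone paralog on a log vertical axis, for each paralog pair on the horizontal axis, with 1 point per library in the order control 2, 3, 4 and cKO 1, 2, 3. Cnga1 to Cnga3 is the pair in which all cKO libraries (0.511 to 0.543) lie below all controls (0.577 to 0.943), while for Gnat1 to Gnat2 the cKO libraries lie on both sides of the controls.

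Library set moved most members more than genotype did. With genotype in the model, 8 members were higher in set B (Gngt1, Cnga1, Pde6c, Cngb3, Cnga3, Rp1, Gucy2e and Pdc), against 32.5% of all genes, and 17 were lower, against 31.2%. The median log2 difference, set B minus set A, was -0.50 over the members and 0.02 over all genes. It was -0.51 for rod, -0.37 for cone and -0.75 for shared genes. In 27 of the 32 members the set difference was the larger of the 2 in absolute size, against 76.8% of all genes.

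Pdc gave the largest rise, from 170, 223 and 217 CPM in control 2, cKO 1 and cKO 2 to 529, 634 and 589 CPM in control 3, control 4 and cKO 3 (log2 difference 1.60, SE 0.11). Prph2 went the other way, at 70.9, 84.5 and 89.1 CPM in set A and 25.6, 28.4 and 22.2 CPM in set B (-1.67, SE 0.13). Unc119 was at 168, 225 and 183 CPM in set A and 66.3, 72.7 and 67.1 CPM in set B (-1.44, SE 0.12). The sets did not overlap in any of these 3 genes. The members higher in set B had a median transcript GC content of 41.3% (36.7 to 52.6%) and those lower in set B 53.9% (46.2 to 59.7%), against 49.8% over all genes tested. Across the 32 members the Spearman correlation of GC content with the set difference was -0.67 (Pearson -0.50), and across 16502 genes it was -0.51 (Pearson -0.46). The same correlation with the genotype difference was -0.05 over the members. Genes are not independent replicates, and the points share the same 6 libraries. Whether GC content has a part in the set difference was not tested.

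**Figure D5:**
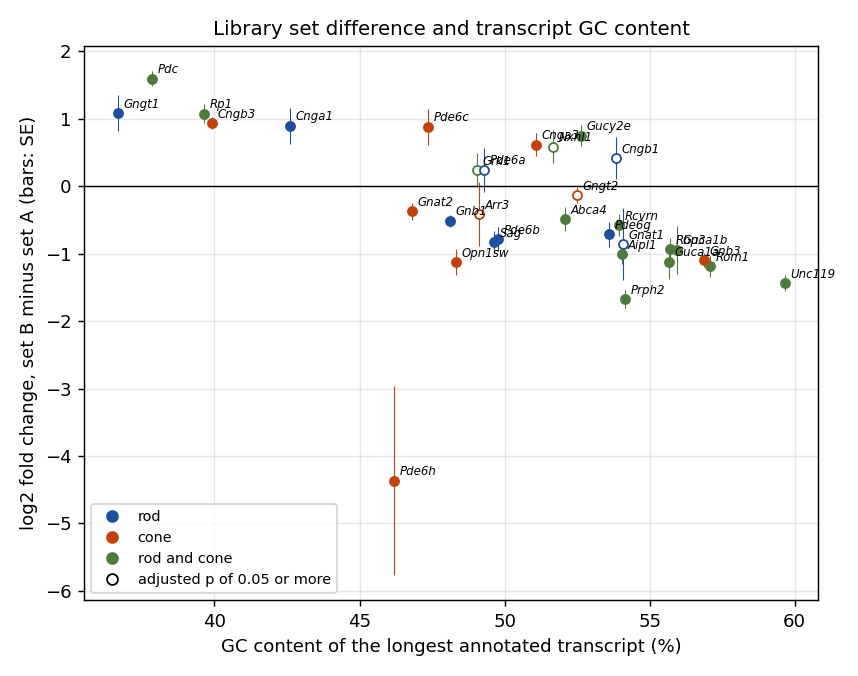
Log2 fold change between library sets (set B minus set A, genotype in the model) on the vertical axis against the GC content in percent of each gene's longest annotated transcript on the horizontal axis, 1 point per tested member with bars showing standard errors and colours the class. Pdc, of low GC content (37.8%), lies above 0, and Unc119, of high GC content (59.7%), lies below. Not every member follows this order, as Gucy2e (52.6%) is at 0.75 and Gnat2 (46.8%) at -0.37.

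Other listed genes of photoreceptors and of the visual cycle gave a few calls, in both directions. Of 49 listed genes outside the members (regulators of the cascade, outer segment and cilium, synapse and inner segment channels, visual cycle, fate factors), 48 were tested, 3 rose and 5 fell, with a median log2 fold change of 0.07. The call rates over all genes were those given above, 6.36% and 5.63%, so the number that rose was near that share. Counts this small say little about the lists as a whole. The visual cycle list is not confined to photoreceptors, and its Rpe65 is also a pigment epithelium marker below. Rxrg, a retinoid receptor of cone precursors, was at 20.4, 12.9 and 10.7 CPM in the controls and 34.1, 30.4 and 19.5 CPM in cKO (0.69, SE 0.12, adjusted p = 0.00788). Otx2 was at 339, 408 and 473 CPM against 273, 293 and 284 CPM (-0.45, SE 0.11, adjusted p = 0.0317), and Prdm1, which stabilises photoreceptor against bipolar fate, at 126, 187 and 169 CPM against 76.5, 102 and 129 CPM (-0.48, SE 0.12, adjusted p = 0.0297). Casz1, a zinc finger factor of retinal progenitors and rods, fell by 0.44 (SE 0.08, adjusted p = 0.00880). Crb1, a polarity protein of the outer limiting membrane, fell by 0.65 (SE 0.12, adjusted p = 0.0110), and the transporter Cnnm4 by 0.43 (SE 0.12, adjusted p = 0.0445). Sall3, a factor of cone development, rose by 0.53 (SE 0.15) and the potassium channel subunit Kcnv2 by 0.49 (SE 0.14), with adjusted p = 0.04995 and 0.04998 in turn. All 8 calls were lost with genotype alone in the model and with sex as a further term. Without control 2, 0 of these genes rose and 1 fell, and without cKO 3, 1 rose and 0 fell.

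Markers of other retinal cells and of other tissues were called in some lists and not in others in the same fit. The call rates over all genes are those given above. All 6 lens markers rose, with a summed level of 1.62 to 3.96 CPM in the controls and 771 to 1968 CPM in cKO, and Crygs and Mip were at 0 or 1 read in controls 3 and 4. All 4 microglia markers rose, from a sum of 10.5 to 25.5 CPM to 30.5 to 52.1 CPM, and all 6 ganglion cell markers rose. Of 6 retinal progenitor markers 1 rose (Sfrp2, log2 fold change 2.71) and 4 fell, with a sum of 5638 to 6035 CPM in the controls and 3237 to 4273 CPM in cKO. Most of the control sum was Ccnd1, at 3397 to 3870 CPM in the controls and 1601 to 2124 CPM in cKO. Of the bipolar markers, Trpm1 and Cabp5 rose of 3 tested, and Pcp2 was not called. Grm6, which had at most 4 reads, Vsx1 and Gng13 were not tested. Vsx1 had 19 reads over the controls and 15 over the cKO, and Gng13 had 16 and 34. Pigment epithelium markers gave 0 calls among 6 tested, with a sum of 4.34 to 13.6 CPM in the controls and 10.6 to 27.5 CPM in cKO. Of the blood markers Hba-a1 and Hbb-bt rose of 4 tested, and of the endothelial markers Pecam1 and Cdh5 rose and Kdr fell of 4. Of 6 amacrine and horizontal markers Calb1 rose, and 0 of 4 optic nerve astrocyte markers were called. With genotype alone in the model 5 lens markers and Calb1 passed, and 0 of the microglia, ganglion cell, progenitor, bipolar, blood and endothelial markers did. With sex as a further term 6 lens, 0 microglia, 1 ganglion cell, 2 progenitor and 0 bipolar markers passed. So did 1 blood, 1 endothelial and 1 amacrine and horizontal marker. The part of these cells in the values of the phototransduction genes was not tested.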

How the data were processed

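Retinal RNA of 6 mice was sequenced with a TruSeq RNA kit, per the labels' protocols. The authors deposited unscaled integer read counts for each Ensembl gene. Tools named in the submitters' processing notes are HTSeq, STAR and edgeR, with build GRCm38, and no strand setting is stated there. Rows that name no gene held 26.4 to 28.8% of counts and stayed out. Symbols came from GENCODE vM21 (37607 of 39179 identifiers, 95.99%). Opn1sw, Gngt2 and Pde6h share exonic bases with genes of the other strand, so their reads may be mixed.

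The test was that of edgeR 4.0.16 under R 4.3.3 (TMM scaling, filterByExpr by group, glmQLFit and glmQLFTest, two-sided, Benjamini-Hochberg adjusted over 16691 genes, threshold 0.05), with library set and genotype as terms. CPM values are TMM-scaled. A model with 1 mean per set and genotype gave the within-set values and their difference. Libraries were treated as separate mice, which only the series text's count of mice supports, so p-values measure the spread between these libraries. Same-group libraries differed by over 23 times the counting expectation and none was a duplicate. The scripts were tested on simulated counts. Alternatives were genotype alone, sex as a term, the label number as a block, RLE or no scaling, no filter or mean CPM of at least 1, DESeq2 1.42.0, limma-voom (limma 3.58.1) and leaving out each library. All members were named, with full values for called members, paralog pairs and the 3 highest and lowest of each class, and other pathway genes were named when called. Other values were chosen after they were seen. The members and lists were chosen with earlier results of these data known.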

Additional observations from a re-analysis of the deposited data

How the results depend on the processing

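The number of members that rose, 1 with library set in the model, was 0 with genotype alone, 0 with sex as a further term, 6 without a filter, 2 in DESeq2 and 0 to 3 when each library was left out (3 without cKO 1: Guca1b, Pde6h and Pde6c). The number of all genes that rose also changed with the setting. It was 1062 of 16691 with library set, 36 with genotype alone and 173 with sex as a further term. Without a filter it was 1471 of 25408, and in DESeq2 1204 of 16691. When each library was left out it ran from 176 of 17182 (without cKO 3) to 1371 of 16819 (without cKO 1). Cone genes that rose, 0 in that fit, were 4 without a filter, 1 in DESeq2 and 0 to 2 when each library was left out. Rod genes that rose were 0 to 1 and rod genes and members that fell 0 to 1, where Cngb1 rose without cKO 3 and Gngt1 fell without control 2. Of all genes, 168 of 16946 fell without control 2. With the label number as a replicate block 2 members rose, Rcvrn and the cone gene Pde6h, against 1007 of all 16691 genes. Same-numbered libraries deviated together (0.77 for number 2 and 0.674 for number 3), but only 2 numbers are shared and the numbers follow the library sets, so the block is not taken as a pairing. Over single members, 462 values had the same status, called or not called, as with library set in the model. As Guca1b was the only member called there, most of these were not called in either fit. A further 13 values were called only under the alternative, while 5 lost the call of Guca1b. The status takes no account of sign in uncalled members. Gngt1, for example, went from -0.26 with library set in the model to 0.44 without cKO 3. Of the 120 values of the 8 called pathway genes, 71 kept the call, 48 lost it and 1 reversed, Kcnv2 with genotype alone (-0.16, adjusted p = 0.940). Over all genes, rises and falls were 1062 and 939 with library set in the model, 949 and 1214 under RLE and 1252 and 800 without scaling. The median of all genes moved by less than 0.1 under either of these. Causes were not tested. Depth limits Opn1mw, Gucy2f, Pde6h and Guca1b, which rest on few reads.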
